A study of Mus musculus with 8 samples.

Results

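Prostaglandins are lipid signals made from membrane arachidonic acid, and the genes described here make them, break them down or receive them. The members were the 10 rows of the count table whose gene name was a cyclooxygenase (Ptgs1, Ptgs2), a terminal prostaglandin synthase (Ptges, Ptgis, Ptgds), the main inactivating enzyme (Hpgd) or a receptor for prostaglandin E2 (Ptger1 to Ptger4). All 10 were found among 54532 table genes, and all 10 passed the filter on low counts, among the 15862 genes tested. RNA had been sequenced from the gastric corpus, the acid- and pepsinogen-secreting body of the stomach, of 8 untreated mice whose strain was a mix of C57BL/6 and CD1. The 4 mutants were Six2-Cre+/- PKAcaR fl/wt and the 4 controls Six2-Cre+/- PKAcaR wt/wt, so every animal carried the Cre transgene and only the mutants carried a floxed copy of the protein kinase A gene. That allele is known to encode a catalytic subunit that no longer needs cyclic AMP after recombination. Cre is driven by Six2 sequences, a mesenchymal transcription factor gene, and the sources used here do not give which cells recombined, nor age or sex.

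In this pathway the cyclooxygenases turn arachidonic acid into an unstable intermediate, and the terminal synthases convert it to single prostaglandins. Prostaglandin E2 then acts through 4 receptors: EP2 and EP4 raise cyclic AMP and so activate protein kinase A, EP3 mostly lowers it, and EP1 raises calcium. In the stomach, prostaglandin E2 is known to restrain acid secretion and to maintain mucus and blood flow, which is why inhibitors of cyclooxygenase can injure the mucosa.

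Library totals lay between 18184281 and 23814720 reads in mutants and between 18942308 and 22814152 in controls. Levels are given as CPM, counts scaled to a common TMM library size, unless FPKM is named. FPKM is the authors' deposited value, scaled for gene length and for library sizes close to the TMM sizes. Prkaca, the targeted gene, lay between 36.8 and 40.7 CPM in mutants and between 77.1 and 86.0 CPM in controls, and was lower (log2 fold change -1.08, SE 0.09, edgeR adjusted p = 0.000604; -0.38 and adjusted p = 0.0200 with raw column totals as library sizes). Counts per gene do not tell its altered transcript from the normal one. The corpus markers were present in every library but low in mutants: the summed level of 6 parietal cell markers was 105 to 2223 CPM in mutants and 14345 to 18303 CPM in controls, and 5 of the 6 were called lower. Mutant 2 stood apart. Its correlation with the other mutants across genes was at most 0.881, whereas the pairs among the other mutants reached up to 0.981. Its 6 fibroblast markers summed to 22009 CPM, against 952 to 1401 CPM in the other mutants and 871 to 1035 CPM in controls. Its 6 neutrophil markers summed to 973 CPM, against 23.0 to 63.8 CPM in the other mutants and 1.97 to 11.3 CPM in controls. Control 3 and mutant 3 held squamous forestomach transcripts, with 7 markers at 179 CPM in control 3 and 553 CPM in mutant 3 and at most 2.49 CPM elsewhere. Results that rest on mutant 2 are given with and without it.

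Ptger4, the EP4 receptor gene, was the only member called, at about 3 times its control level in mutant corpus. Ptgs2 and Ptges, which together make inducible prostaglandin E2, were far higher in mutant 2 than in any other library, and neither passed. Among the members 1 was called higher, where 9.39% of all tested genes were, and none was called lower, where 10.8% were (edgeR, quasi-likelihood, with Benjamini-Hochberg adjustment at 0.05). In either direction 20.2% of all genes were called. At an unadjusted p under 0.05 edgeR gave 3 higher and 1 lower. DESeq2 called 2 members higher and none lower, where it called 14.6% of all genes higher and 15% lower. Limma-voom with sample weights called 1 higher and 4 lower, where it called 16.5% and 19.3% of all genes. The median log2 fold change of the members, mutant over control, was -0.45, against 0.07 over all genes tested. Without mutant 2 Ptger4 was again higher (15.2% of all tested genes were) and 5 members were lower (18.3% of all were), namely Ptgs1, Ptgis, Ptgds, Hpgd and Ptger3, where 33.5% of all genes were called in either direction. The groups did not overlap for 3 members, Ptger4 above and Ptgds and Hpgd below, and for 30.3% of all genes. Without mutant 2 they did not overlap for 1 member above (19.8% of all genes) and 6 below (21.7%). The 5 lower calls depended on the scaling too: with mutant 2 left out and column totals as library sizes, 3 members were higher (Ptgs2, Ptges and Ptger4) and 1 was lower (Ptgis), where 64.1% of all genes were higher and 7.05% lower. With column totals in place of TMM and all libraries, a scaling that raised the median of all genes by 0.70 on the log2 scale, 3 were higher (again Ptgs2, Ptges and Ptger4) and none lower, where 59.3% of all genes were higher and 4.56% lower. Calls of higher with column totals thus do not set members apart from most genes. Pgc alone, a chief cell gene, made up 20.7% to 31.2% of the reads in controls and 0.107% to 4.6% in mutants. Column totals include these reads, and their part in the calls made with column totals was not tested.

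**Figure D1:**
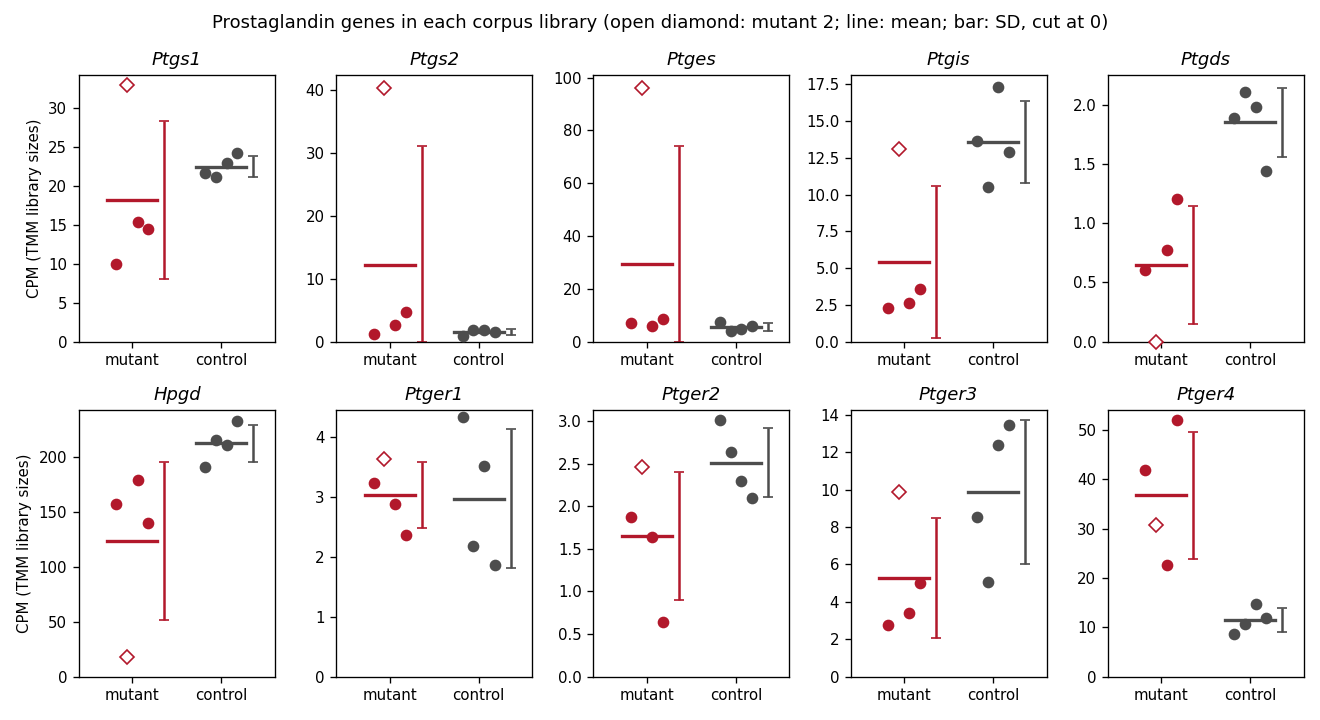
Level of each of the 10 members in CPM (linear axis from 0) in the 4 mutant (red) and 4 control (grey) libraries, with the mean as a line and the SD as a bar cut at 0. The open diamond is mutant 2, which was the highest mutant for 7 members and the lowest for 2, and Ptger4 is the member whose mutants all lay above the controls.

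Among the members per unit length, Hpgd was by far the most abundant transcript, at 72.8 ± 42.7 FPKM in mutants and 125 ± 9.75 FPKM in controls (SD, n = 4 each). In controls Ptgs1 (5.72 ± 0.357 FPKM) and Ptgis (5.25 ± 1.10 FPKM) came next and had overlapping ranges. Ptger3, Ptger4, Ptges and Ptgds followed, between 1.11 and 1.72 FPKM on average, each overlapping the next in that order. Ptger1, Ptger2 and Ptgs2 were lowest, between 0.332 and 0.539 FPKM. Clear steps without overlap lay below Hpgd, below Ptgis and below Ptgds. In mutants Ptger4 averaged 5.50 ± 1.91 FPKM, and every gene's range overlapped that of its neighbour in the order of means.

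Ptgs1 encodes the constitutive cyclooxygenase of the stomach (ENSMUSG00000047250, chromosome 2, 36230426 to 36252272 in GRCm38). It measured 9.99, 33.0, 15.3 and 14.5 CPM in mutants 1 to 4 and 21.6, 21.1, 22.9 and 24.2 CPM in controls 1 to 4. Mutant 2 lay above all controls, and the other 3 mutants lay below all of them. With all libraries the log2 fold change was -0.30 (SE 0.33, edgeR adjusted p = 0.545). Without mutant 2 the mutant mean was 13.3 ± 2.86 CPM (n = 3), and Ptgs1 was called lower by the same test, at a log2 fold change of -0.76 (SE 0.16, adjusted p = 0.00366). That difference depended on the scaling: with mutant 2 left out and column totals as library sizes it was -0.08 (adjusted p = 0.700).

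Ptgs2, the inducible cyclooxygenase gene (ENSMUSG00000032487, chromosome 1, 150100031 to 150108227), was scarce in most libraries. It had 38, 988, 61 and 109 reads in mutants 1 to 4 and 14, 29, 29 and 25 reads in controls 1 to 4. In CPM these were 1.27, 40.4, 2.63 and 4.67 in mutants, against 0.879, 1.91, 1.85 and 1.50 in controls. Mutant 2 was at 26.3 times the control mean, mutants 3 and 4 lay above every control, and mutant 1 lay within the control range. The log2 fold change of 2.99 had an SE of 1.08 and did not pass (adjusted p = 0.0829). It passed with DESeq2 (3.00, adjusted p = 0.00700). Without mutant 2 it was 0.89 (SE 0.44, adjusted p = 0.145). With column totals as well it was 1.59 (adjusted p = 0.00418), in a fit that called 64.1% of all genes higher.

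The balance of the 2 cyclooxygenase transcripts does not depend on how libraries are scaled. Ptgs2 made up 9.73%, 51.0%, 12.7% and 21.5% of the summed FPKM of Ptgs1 and Ptgs2 in mutants 1 to 4, against 3.34%, 7.14%, 6.43% and 4.99% in controls 1 to 4. All 4 mutants lay above all 4 controls, and mutant 1 was the nearest to them. The sum itself was 2.83, 17.2, 4.50 and 4.70 FPKM in mutants and 5.71 to 6.48 FPKM in controls, so that 3 mutants lay below the controls and mutant 2 above.

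Ptges encodes microsomal prostaglandin E synthase, the inducible enzyme that works with the Ptgs2 product (ENSMUSG00000050737, chromosome 2, 30889471 to 30929863). Its levels were 7.25, 96.2, 5.86 and 8.79 CPM in mutants 1 to 4 and 7.47, 4.22, 4.85 and 5.86 CPM in controls 1 to 4. Mutant 2 was at 17.2 times the control mean, and of the other mutants only mutant 4 exceeded every control. The log2 fold change was 2.40 with an SE of 0.95 (edgeR adjusted p = 0.108; DESeq2 gave no adjusted p), and without mutant 2 it was 0.38 (SE 0.24, adjusted p = 0.246). With column totals as well it was 1.06 (adjusted p = 0.00230), again in the fit that called 64.1% of all genes higher. In mutant 2, where Ptgs2 and Ptges were highest, the fibroblast, neutrophil and macrophage marker sums were also the highest of all libraries, the last at 815 CPM against 123 to 224 CPM in the other mutants and 120 to 151 CPM in controls. As group differences, 1 of 6 fibroblast markers, 4 of 5 tested neutrophil markers and 1 of 7 macrophage markers were called higher. The neutrophil gene Ly6g was not tested, with 7, 95, 0 and 6 reads in mutants 1 to 4 and 0 in every control. The part of these cell types in the Ptgs2 and Ptges levels was not tested.

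Ptgis makes prostacyclin, a vasodilator known mainly from vessel walls and smooth muscle (ENSMUSG00000017969, chromosome 2, 167191805 to 167240604). It measured 2.30, 13.1, 2.63 and 3.56 CPM in mutants 1 to 4, against 13.6, 10.5, 17.3 and 12.9 CPM in controls 1 to 4. Mutant 2 lay within the control range, while the other 3 mutants lay far below it. The test on all libraries gave a log2 fold change of -1.33 (SE 0.56, adjusted p = 0.127). Without mutant 2 Ptgis fell by 2.27 on the log2 scale (SE 0.23, adjusted p = 5.52e-05), to 2.83 ± 0.650 CPM in mutants, against 13.6 ± 2.80 CPM in controls. It was lower with column totals too once mutant 2 was left out (-1.57, adjusted p = 6.70e-05). All 7 smooth muscle markers were lower in mutants, with sums of 236 to 765 CPM in mutants and 2668 to 3622 CPM in controls, and none was at 0. Mutant 2 was as low as the other mutants in these markers (516 CPM), whereas the 6 endothelial markers were high there, summing to 833 CPM in mutant 2, to 121 to 128 CPM in the other mutants and to 159 to 196 CPM in controls. No endothelial marker was called with all libraries, and 4 of 6 were called lower without mutant 2 (Pecam1, Kdr, Tek and Emcn). The part of smooth muscle and endothelium in the Ptgis result was not tested. In whole tissue, fewer cells of a type and less RNA per cell cannot be told apart.

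Ptgds, the lipocalin-type prostaglandin D synthase gene (ENSMUSG00000015090, chromosome 2, 25466709 to 25470046), was barely detected. It had 18, 0, 18 and 28 reads in mutants 1 to 4 and 30, 32, 31 and 24 reads in controls 1 to 4. In CPM the mutants held 0.601, 0, 0.776 and 1.20, and the controls 1.88, 2.11, 1.98 and 1.44. The count of 0 in mutant 2 allows a level of up to 0.123 CPM, the worth of 3 reads. All mutants lay below all controls, as they did for 16.1% of all genes tested, but the log2 fold change of -1.52 (SE 0.79) did not pass (adjusted p = 0.202). It was -1.11 without mutant 2 (SE 0.37, adjusted p = 0.0359), and -0.42 (adjusted p = 0.339) when column totals were used as well. The 8 markers of enteric neurons and glia, among the cells known to make this enzyme in nervous tissue, summed to 8.25 to 14.0 CPM in mutants and 38.4 to 59.7 CPM in controls, with 6 of 8 lower. Their part was not tested.

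Hpgd encodes 15-hydroxyprostaglandin dehydrogenase, which inactivates prostaglandin E2 (ENSMUSG00000031613, chromosome 8, 56294585 to 56321043). Its levels were 158, 17.7, 179 and 139 CPM in mutants 1 to 4 and 191, 215, 211 and 232 CPM in controls 1 to 4. All mutants lay below all controls, and mutant 2 lay at 0.0832 of the control mean. The log2 fold change of -0.78 had an SE of 0.56 and did not pass (adjusted p = 0.344). Without it the other 3 mutants, at 158 ± 19.6 CPM, were lower than the controls at 212 ± 16.9 CPM (log2 fold change -0.42, SE 0.12, adjusted p = 0.0202). With column totals as well the sign of that difference turned, to 0.26 (adjusted p = 0.143). The 4 pit cell markers of the surface epithelium were not called with all libraries, and all 4 were called lower without mutant 2. They summed to 4277 CPM in mutant 2, to 23992 to 33275 CPM in the other mutants and to 39296 to 63921 CPM in controls. Their part in the Hpgd level was not tested.

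The ratio of Hpgd to Ptges, inactivation against terminal synthesis, is again free of library scaling. In FPKM it was 50.8, 0.429, 71.1 and 37.1 in mutants 1 to 4, against 59.7, 119, 101 and 92.5 in controls 1 to 4. Mutant 2 was the sole library with more Ptges than Hpgd transcript per length. Of the other mutants, 1 and 4 lay below every control, and mutant 3 lay between control 1 and control 4.

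**Figure D2:**
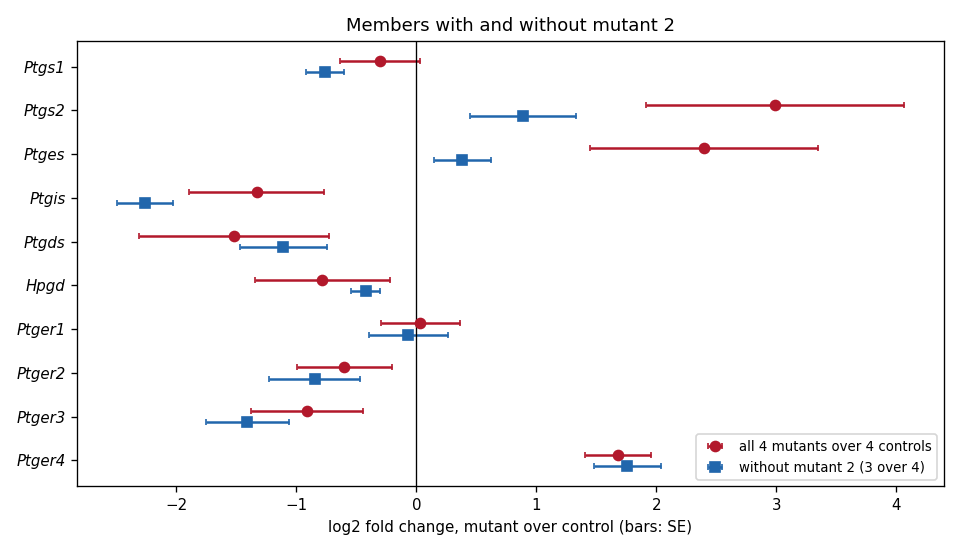
Log2 fold change of each member, mutant over control, with its SE, from edgeR on all 8 libraries (red circles) and without mutant 2 (blue squares). Ptgs2 and Ptges were at 2.99 and 2.40 with that library and at 0.89 and 0.38 without it, whereas Ptger4 was at 1.68 with it and 1.76 without it.

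Ptger4 encodes EP4, a receptor that raises cyclic AMP upon binding prostaglandin E2 (ENSMUSG00000039942, chromosome 15, 5206661 to 5244187, minus strand). Read counts were 1254, 752, 523 and 1214 in mutants 1 to 4 and 139, 161, 230 and 199 in controls 1 to 4. These corresponded to 41.9, 30.7, 22.5 and 52.0 CPM in mutants, against 8.73, 10.6, 14.7 and 11.9 CPM in controls. The lowest mutant, mutant 3, was above the highest control, control 3, and mutant 2 lay within the span of the other mutants. All mutants lay above all controls in 14.2% of the genes tested. Ptger4 averaged 36.8 ± 12.9 CPM in mutants and 11.5 ± 2.5 CPM in controls (SD, n = 4 each), a log2 fold change of 1.68 (SE 0.28, edgeR adjusted p = 0.00598). Without mutant 2 it was 1.76 (SE 0.28, adjusted p = 0.00152), and without control 3 and mutant 3, the libraries with squamous transcripts, 1.99 (adjusted p = 0.0134). It was called in all 20 alternative fits, with log2 fold changes from 1.22 to 2.46 and adjusted p of at most 0.0341. The largest value came with column totals and mutant 2 left out, and the smallest on log2(FPKM + 1), a scale that understates the change of low genes.

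The gene overlaps Ttc33 on the opposite strand, and whether reads were counted by strand could not be learned from the sources used here. Exons of the 2 genes share 82 bases, 1.23% of the Ptger4 exon length, and Ttc33 did not pass (log2 fold change -0.31, adjusted p = 0.111). A processed pseudogene, Gm15937, covers 15.3% of the Ptger4 exon length and had no counted read in any library.

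The promoters of Ptger4 and of Ptgs2, the members with the called change and with the largest fold change, are printed because Ptgs2 is known to respond to cyclic AMP in other tissues and EP4 to raise it. They span 250 bases before to 50 bases after the RefSeq start in GRCm38.p6, at chr15:5244138-5244437 on the minus strand and chr1:150099781-150100080 on the plus strand, 5′ to 3′. Capitals mark TGACG or its reverse complement CGTCA, the core of the element to which CREB, a transcription factor phosphorylated by protein kinase A, is known to bind.
Ptger4: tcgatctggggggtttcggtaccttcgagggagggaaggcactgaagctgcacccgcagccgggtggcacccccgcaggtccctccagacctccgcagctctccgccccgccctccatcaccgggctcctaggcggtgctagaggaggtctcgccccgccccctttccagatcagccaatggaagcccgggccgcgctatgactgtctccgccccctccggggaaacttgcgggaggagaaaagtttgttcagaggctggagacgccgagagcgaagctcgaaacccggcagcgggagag
Ptgs2: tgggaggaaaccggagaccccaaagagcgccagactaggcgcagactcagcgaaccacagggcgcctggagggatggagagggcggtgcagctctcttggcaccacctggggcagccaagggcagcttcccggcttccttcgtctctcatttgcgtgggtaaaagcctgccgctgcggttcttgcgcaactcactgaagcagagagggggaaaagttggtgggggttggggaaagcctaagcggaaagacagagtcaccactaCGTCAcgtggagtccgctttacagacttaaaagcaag
The Ptgs2 promoter held 1 match, at bases 14 to 18 after the RefSeq start, and the Ptger4 window held none. Of the 8 member promoters in the RefSeq table, which has none for Ptgis and Ptger1, Ptgs2 was the only one with a match, where 20.8% of all 32851 promoters of the same length had at least 1. A match describes letters and does not by itself show whether CREB binds there.

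Ptger3 encodes EP3, the receptor that mostly opposes cyclic AMP and through which prostaglandin E2 is known to restrain the parietal cell (ENSMUSG00000040016, chromosome 3, 157566892 to 157645888). It measured 2.74, 9.85, 3.41 and 5.01 CPM in mutants 1 to 4 and 8.54, 5.07, 12.4 and 13.5 CPM in controls 1 to 4. The groups overlapped through mutant 2, and mutants 1, 3 and 4 lay below every control, mutant 4 only just below control 2. The log2 fold change was -0.91 (SE 0.47, adjusted p = 0.196) with all libraries. Without mutant 2 Ptger3 fell by 1.41 on the log2 scale (SE 0.34, adjusted p = 0.00998), and with column totals in that comparison it missed the threshold (-0.72, adjusted p = 0.0657). The parietal cell marker sum was lowest in mutant 2, the mutant with the most Ptger3. Their part in the Ptger3 level was not tested.

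Ptger1, the EP1 receptor gene (ENSMUSG00000019464, chromosome 8, 83666678 to 83672753), measured 3.24, 3.64, 2.89 and 2.36 CPM in mutants and 4.33, 2.17, 3.51 and 1.85 CPM in controls. The mutants lay inside the control range, and the log2 fold change was 0.03 (SE 0.33, adjusted p = 0.954). Its level is uncertain, since reads of overlapping genes cannot be told apart without the strand setting. Ptger2, the other receptor coupled to cyclic AMP production (ENSMUSG00000037759, chromosome 14, 44988195 to 45003820), measured 1.87, 2.45, 1.64 and 0.643 CPM in mutants and 3.01, 2.64, 2.30 and 2.09 CPM in controls. Here 3 mutants lay below every control, and the log2 fold change of -0.60 (SE 0.40) did not pass (adjusted p = 0.305), nor did it without mutant 2 (-0.85, adjusted p = 0.109).

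Set side by side within each library, the EP receptor transcripts had a different make-up in the groups. Ptger4 was 81.4%, 61.7%, 70.1% and 84.5% of the summed FPKM of the 4 receptor genes in mutants 1 to 4, against 31.3%, 47.0%, 40.4% and 36.5% in controls 1 to 4. Ptger3 was 6.22%, 23.1%, 12.4% and 9.52% in mutants, against 35.8%, 26.3%, 39.8% and 48.3% in controls. Neither share overlapped between the groups, and mutant 2 was the mutant nearest to the controls in both. The summed level was 7.69, 7.45, 4.82 and 9.17 FPKM in mutants and 4.16, 3.35, 5.45 and 4.85 FPKM in controls, with mutant 3 inside the control range. Since Ptger4 was the member with the called change, these shares restate it on a scale that does not use the library size.

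**Figure D3:**
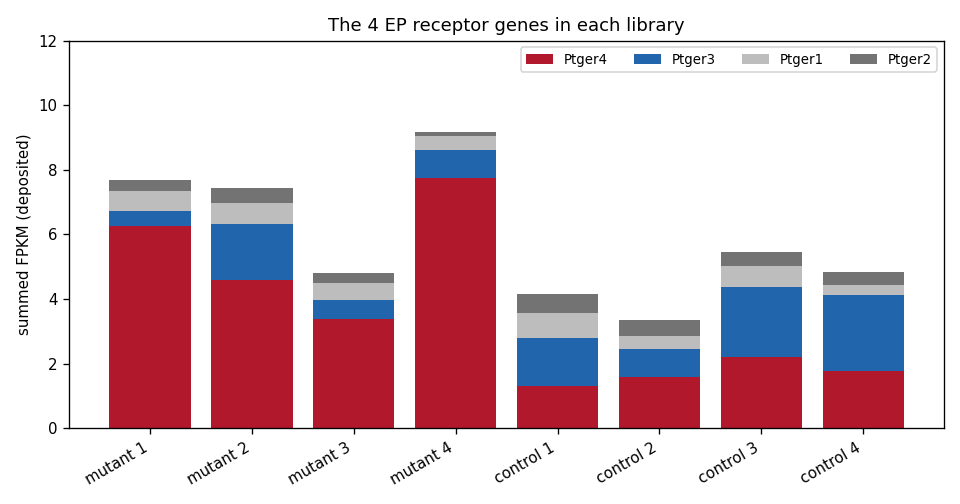
Summed FPKM (the authors' deposited values) of the 4 EP receptor genes in each library, mutants on the left and controls on the right, stacked by gene. Ptger4 (red) made up 61.7% to 84.5% of each mutant bar and 31.3% to 47.0% of each control bar.

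The tested genes with a pattern most like that of Ptger4 were Dyrk3, Fmnl2 and Zfp239, over the 8 libraries. Likeness was the root mean square difference between 2 genes' log2(CPM + 0.5) deviations from their own control means. It was 0.230 for Dyrk3, 0.267 for Fmnl2 and 0.275 for Zfp239. Dyrk3 was scarce, at 1.34 to 2.27 CPM in mutants and 0.239 to 0.638 CPM in controls. At such levels the added 0.5 shrinks the deviations, and its log2 fold change was 2.31, against 1.68 for Ptger4. Fmnl2, a formin gene of the actin cytoskeleton, measured 45.0, 39.3, 30.9 and 41.3 CPM in mutants 1 to 4, against 11.6, 13.1, 14.7 and 16.8 CPM in controls 1 to 4.

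A wider list of 40 other genes of arachidonic acid metabolism put the members in context. Of these, 33 were tested: 5 were higher, 2 were lower and 26 were not called, with a median log2 fold change of -0.02 against 0.07 for all genes tested. The share higher among all genes was 9.39% and the share lower 10.8%. The 5 higher genes were Pla2g4a, Hpgds, Abcc4, Alox5 and Alox5ap, and the 2 lower were Pla2g1b and Zadh2. Without mutant 2 the list had 9 higher and 7 lower, where 15.2% and 18.3% of all genes were. With column totals it had 11 higher and 1 lower, where 59.3% and 4.56% of all genes were.

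At the supply end, Pla2g4a encodes the cytosolic phospholipase that releases arachidonic acid from membranes. It averaged 71.7 ± 15.1 CPM in mutants and 42.7 ± 5.17 CPM in controls (log2 fold change 0.75, SE 0.17, adjusted p = 0.0187), with all mutants above all controls. It missed the threshold in 4 of 20 alternative fits (adjusted p of at most 0.0902). Among these were the fits without control 1 (adjusted p = 0.0549) and without control 3 (adjusted p = 0.0539). Pla2g4c, also of the supply step, measured 32.6, 4.21, 29.7 and 40.4 CPM in mutants 1 to 4, against 17.1 ± 1.59 CPM in controls. It was not called with all libraries (log2 fold change 0.65, adjusted p = 0.423) and was higher without mutant 2 (adjusted p = 0.000257). Pla2g12a was not called with all libraries (-0.67, adjusted p = 0.141), although all mutants lay below all controls. Without mutant 2 it was lower (-0.43, adjusted p = 0.0203). Pla2g1b, a secreted digestive phospholipase, was at 901, 14.0, 3433 and 1886 CPM in mutants 1 to 4, against 24785, 24962, 40430 and 26596 CPM in controls 1 to 4 (log2 fold change -4.23, SE 1.23, adjusted p = 0.0443). Its call ended in 10 of 20 alternative fits, with adjusted p up to 0.102. Among these were the fits that dropped mutant 1, mutant 4 or any control. The 5 chief cell markers, most of whose reads were Pgc, summed to 996 to 41618 CPM in mutants and 298410 to 533948 CPM in controls. Of these markers 2 were called lower with all libraries and 4 without mutant 2. Pga5 was not called in either fit (log2 fold change -0.08, edgeR adjusted p = 0.965 with all libraries, and 0.33 without mutant 2). The part of chief cells in the Pla2g1b result was not tested.

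Hpgds, the haematopoietic prostaglandin D synthase gene, measured 8.65, 15.9, 7.93 and 10.9 CPM in mutants 1 to 4, against 3.64, 5.40, 3.83 and 3.17 CPM in controls 1 to 4. All mutants lay above all controls (log2 fold change 1.44, SE 0.29, adjusted p = 0.0115), in contrast to the values of Ptgds above. The remaining synthase genes tested, Ptges2, Ptges3, Tbxas1, Akr1b3, Cbr1 and Cbr3, were not called, with log2 fold changes between -0.68 and 0.00. Of these, Ptges2, a membrane-associated prostaglandin E synthase gene, came nearest (-0.66, SE 0.21, adjusted p = 0.0585), and it was lower without mutant 2 (-0.48, adjusted p = 0.0118), a sign that turned with column totals as well (0.19, adjusted p = 0.276). Tbxas1, the thromboxane synthase gene, was also lower without mutant 2 (-1.14, adjusted p = 0.00277), and with column totals it missed the threshold (-0.46, adjusted p = 0.118).

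In breakdown and transport, Abcc4, an efflux pump known to export prostaglandin E2 and cyclic AMP, averaged 35.1 ± 8.97 CPM in mutants and 19.5 ± 3.03 CPM in controls (log2 fold change 0.85, SE 0.20, adjusted p = 0.0231). Its call was lost in 6 of 20 alternative fits (adjusted p of at most 0.0691). Among these were the fits without mutant 4, control 1, control 2 or control 3. Zadh2, a prostaglandin reductase gene, averaged 60.0 ± 13.8 CPM in mutants and 88.6 ± 7.68 CPM in controls (log2 fold change -0.56, SE 0.17, adjusted p = 0.0493). The call ended in 11 of 20 alternative fits, among them those without mutant 3, mutant 4 or any 1 control (adjusted p of at most 0.120 in these). In 2 more the sign turned, with column totals (0.12) and with mutant 2 also left out (0.23). Slco2a1, the uptake carrier that delivers prostaglandins for breakdown, was at 108 ± 57.9 CPM in mutants and 181 ± 27.4 CPM in controls and was not called (log2 fold change -0.75, SE 0.45, adjusted p = 0.263). Receptors for other prostanoids were scarce. Ptgdr and Ptgdr2 were not tested, and Ptgfr, Ptgir and Tbxa2r did not pass. Without mutant 2 the prostaglandin F receptor gene Ptgfr was lower (-2.14, adjusted p = 0.00209), also with column totals (-1.46, adjusted p = 0.00556). The thromboxane receptor gene Tbxa2r was lower without mutant 2 (-0.78, adjusted p = 0.0478), but not with column totals (-0.09, adjusted p = 0.786).

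On the lipoxygenase and leukotriene branch, which uses the same arachidonic acid, 8 of 10 genes had positive log2 fold changes, as had 55% of all genes tested. Of the 10, 2 were called higher, where 9.39% of all genes were, and none lower. Alox5, the 5-lipoxygenase gene, measured 13.2, 18.6, 20.2 and 28.3 CPM in mutants 1 to 4, against 4.83, 8.96, 6.51 and 5.62 CPM in controls 1 to 4. Its log2 fold change was 1.63 (SE 0.28, adjusted p = 0.00666). Alox5ap, the gene of its activating protein, measured 7.18, 29.7, 9.31 and 14.4 CPM in mutants, against 4.21, 5.93, 2.94 and 3.41 CPM in controls (log2 fold change 1.88, SE 0.47, adjusted p = 0.0274). All mutants lay above all controls for both genes. Alox5 was called in every alternative fit, whereas Alox5ap lost its call in 6 of 20 (adjusted p of at most 0.0825). Among these were the fits without mutant 4, control 1, control 3 or control 4. Without mutant 2, Ltc4s, Lta4h and Ltb4r2 were higher as well (adjusted p = 0.0379, 0.0306 and 0.0240).

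Alox5, Alox5ap, Hpgds and Ptgs1 are known to be expressed in tuft cells, the chemosensory cells of the gut lining. Of 9 tuft cell markers 7 were tested and 6 of these were higher, with sums of 290 to 536 CPM in mutants and 119 to 252 CPM in controls, none at 0. Dclk1, a defining tuft cell gene, was at 31.7, 50.3, 49.9 and 72.0 CPM in mutants 1 to 4, against 8.10, 10.1, 6.83 and 10.6 CPM in controls 1 to 4. Ptgs1 lay below every control in mutants 1, 3 and 4. The neutrophil list, whose cells are known for Alox5 and Alox5ap too, had 4 of 5 tested markers higher. Of the macrophage markers 1 of 7 was higher, and of the 7 mast cell markers 0 were called. The mast cell sums were 35.2 to 97.1 CPM in mutants and 28.9 to 109 CPM in controls. Mutant 2 had the lowest tuft cell sum of the mutants (290 CPM). It had the highest Hpgds (15.9 CPM), Alox5ap (29.7 CPM) and Ptgs1 (33.0 CPM), while its Alox5 lay within the span of the other mutants. The part of these cell types in these results was not tested.

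**Figure D4:**
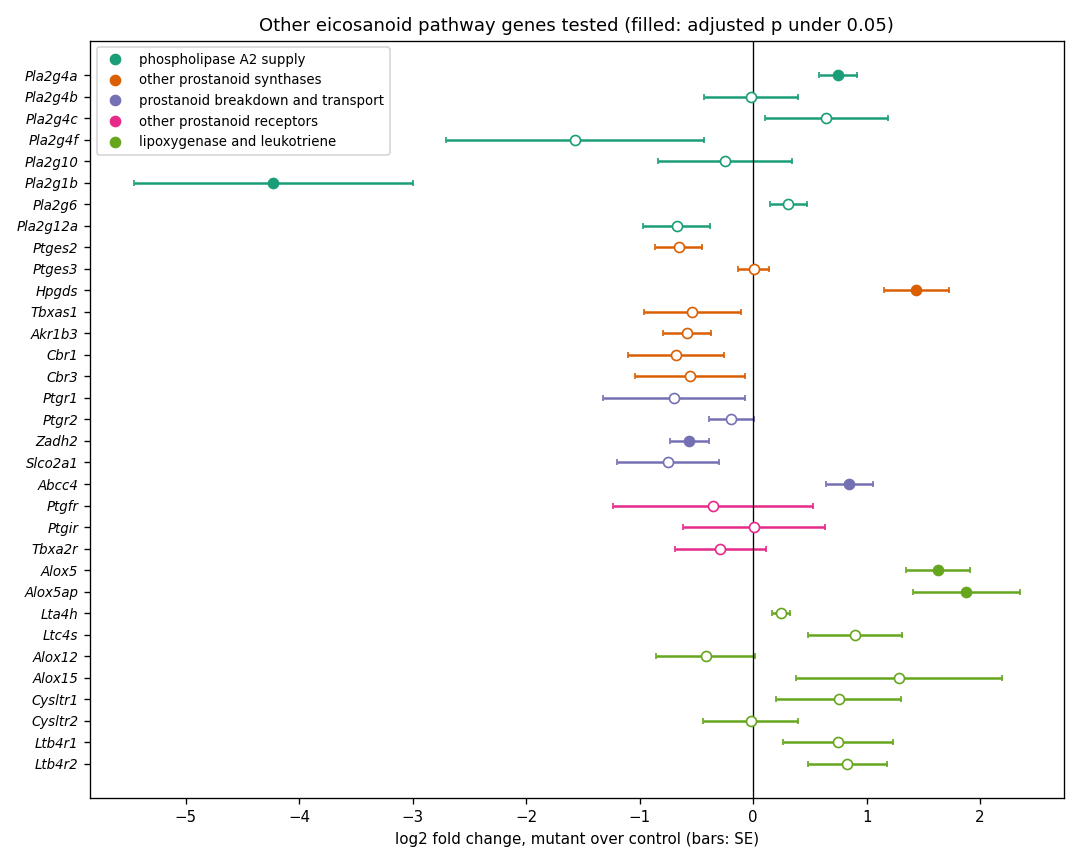
Log2 fold change with its SE for the 33 tested genes of the wider list, mutant over control, coloured by step, with filled points for genes called (adjusted p under 0.05). Alox5, Alox5ap and Hpgds stand at 1.63, 1.88 and 1.44, and Pla2g1b at -4.23.

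**Figure D5:**
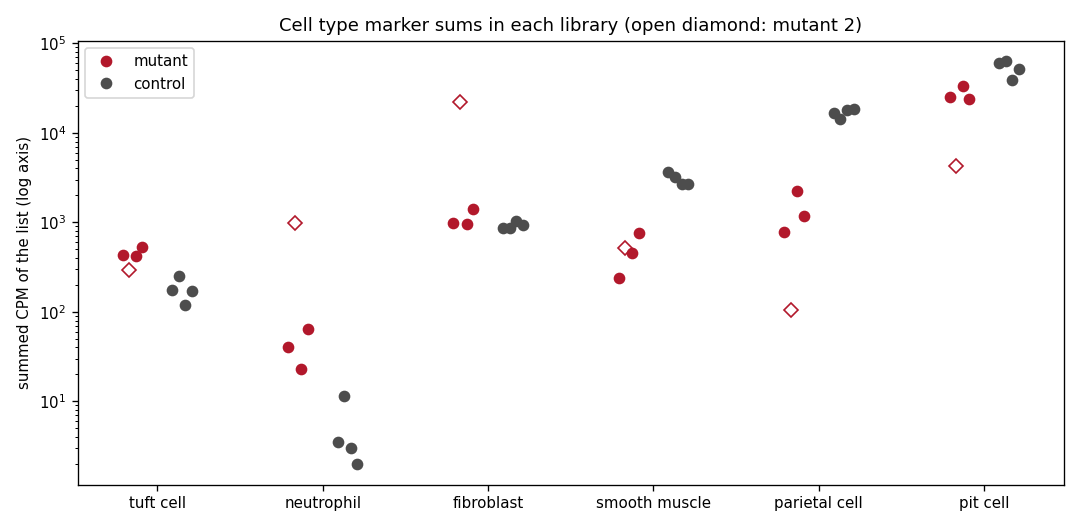
Summed CPM (log axis) of 6 cell type marker lists in the 4 mutant (red) and 4 control (grey) libraries, with mutant 2 as an open diamond. Mutant 2 stands at 22009 CPM for fibroblast markers and 973 CPM for neutrophil markers, and tuft cell markers were at 290 to 536 CPM in mutants and 119 to 252 CPM in controls.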

How the data were processed

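Polyadenylated RNA from 4 mutant and 4 control corpora was made into NEBNext Ultra libraries, per the labels' protocols. Counts of reads for each Ensembl gene, not normalized, and FPKM values were deposited by the authors. The submitters' processing notes name CASAVA, fastp, STAR 2.5 and featureCounts, without roles. Build and strand setting are not stated in the sources used here, but all 10 members, and 53585 of the 54495 table genes shared with GENCODE M21 (GRCm38), had the same start and end there. The header SCI was read as control 1. The series' design text gives 4 biological replicates a group.

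Genes passing filterByExpr were scaled by TMM and tested with edgeR 4.0.16 (R 4.3.3, robust quasi-likelihood, Benjamini-Hochberg, threshold 0.05), mutant over control, over all 15862 genes. The SE is the unshrunk coefficient over the square root of F. Library sizes implied by the deposited FPKM were 1.00 to 1.01 times the TMM sizes. The fits on FPKM are therefore no check of the scaling independent of TMM. Total counts lay between 18184281 and 23814720, and 3 reads, the floor, were 0.100 to 0.198 CPM per library, covering counting error only. Alternatives were DESeq2 1.42.0, limma 3.58.1 (voom, and trend on FPKM), other scalings and filters, the replicate block and libraries left out. Leaving out mutant 2 with column totals was added after seeing the data. The fits were also run on simulated counts with known changes, and the outcome is not given here. Those counts had no outlying library like mutant 2, so that run cannot show how the fits handle it.

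The members and lists were chosen with earlier results of these data known. Named were all members, every called gene of the wider list, and the 3 genes nearest Ptger4 in pattern. Other genes of that list were named after their values were seen.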

Additional observations from a re-analysis of the deposited data

Results flagged for a closer look

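In 4 of 32 sets of 4 values checked, 1 library was so far from the other 3 that its gap to the nearest took over 0.829 of the whole range. For independent, normally distributed values chance gives this in about 5% of such sets. The sets here share genes and libraries and need not be normal, so that rate is only a guide. All 4 cases were mutant 2. Ptgs2 was at 40.4 CPM there, with a gap of 0.913 of the range of the mutants. Ptges was at 96.2 CPM, with a gap of 0.968 of the range. Ptgis was at 13.1 CPM, with a gap of 0.884 of the range, a value inside the control range rather than beyond it. The summed FPKM of both cyclooxygenase genes was 17.2, with a gap of 0.870 of the range, against 2.83 to 4.70 FPKM in the other mutants.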

How the results depend on the processing

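Over all genes, 1489 were higher and 1719 lower. The counts were 2309 higher with DESeq2, 2624 higher and 3067 lower with limma-voom, 9412 and 724 with column totals, and 587 and 823 without control 3 and mutant 3 together. On log2(FPKM + 1) with no filter 827 were higher. With column totals and mutant 2 left out they were 10335 and 1136. Leaving out 1 library each gave 665 to 2447 higher and 1018 to 2953 lower. Of the members, 2 were higher with DESeq2, 3 with column totals and 3 with column totals and mutant 2 left out, where 1 was lower. Members lower were 4 with limma-voom, in which mutant 2 had a weight of 0.102 against 0.934 to 1.94 in the other libraries. On log2(FPKM + 1) with the filter 1 member was lower (Ptgds). Leaving out 1 library gave 1 higher each time and 0 to 5 lower, the 5 without mutant 2. In the wider list, with 5 higher and 2 lower, the counts were 9 and 8 with limma-voom, 11 and 1 with column totals, and 2 and 1 without control 3 and mutant 3. The list had 14 higher with column totals and mutant 2 left out, 4 lower with DESeq2, 0 lower with no count filter, 1 lower on filtered log2(FPKM + 1), and 3 higher and 0 lower on the unfiltered scale. Leaving out 1 library gave 2 to 9 higher and 0 to 7 lower. Zadh2 turned to 0.12 with column totals and to 0.23 with mutant 2 also left out. With the replicate number as a block 747 genes were higher and 1077 lower, the members kept 1 higher (Ptger4, log2 fold change 1.64, adjusted p = 0.0341) and 0 lower, and the list had 0 lower. The numbers do not pair the animals by the labels, same-numbered libraries' deviations correlated at -0.09 to 0.06, and only mutant 3 correlated best with its own number. The causes were not tested. Of 338 single-gene comparisons with the main values, 275 kept direction and call, 16 gained a call, 37 lost it and 10 turned in sign. Besides Zadh2, those that turned were not called in either fit. Ptgs1 was at 0.40 and Ptger2 at 0.0947 with column totals, and Hpgd at 0.26 with mutant 2 also left out. Ptger1 was at -0.0295 with limma-voom, and ranged from -0.14 to 0.27 when 1 library was left out, below 0 without mutant 1, mutant 2, control 2 or control 4. Low counts of Ptgds, Ptger1, Ptger2 and, in most libraries, Ptgs2 limit what could be detected.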
